A study of Mus musculus with 6 samples.

Results

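The genes described here build the keratin filaments, desmosomes and cornified envelope of the epidermis, together with claudins of tight junctions, in RNA of newborn mouse forearm bone. They were chosen by gene symbol: keratins, desmogleins, desmocollins, small proline-rich and late cornified envelope genes, kallikreins, claudins, plakophilins, and Lor, Krtdap, Sbsn, Dsp, Jup, Sfn, Perp and Trp63. Among the 5780 named genes, 11 met this rule, each with 1 probe set naming 1 gene. The 11 were the stratified keratins Krt1, Krt5, Krt10 and Krt14, the cornified envelope genes Lor and Lce1j, the keratinocyte differentiation gene Krtdap, the hair keratin Krt33b, the desmosomal plaque gene Jup, and the claudins Cldn5 and Cldn13. A further 2 probe sets listed a matching symbol beside others and were not used here. The first 7 genes, expressed in stratified epithelium, are called epidermal genes below. The other 4 are kept apart: Krt33b is a keratin of hair, and Jup, Cldn5 and Cldn13 are expressed in cells outside stratified epithelium. The label of desmosome genes thus rested on Jup alone, since no probe set named a desmoglein, desmocollin or plakophilin by itself, nor did any name a kallikrein.

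The samples were 3 arrays of RNA from del175k mutant mice of the gene Tnni2, which encodes the fast skeletal muscle troponin I, and 3 arrays of wild-type littermates, all newborn and of strain 129sv. Radii and ulnae were collected from 3 pairs of mice, and the labels do not give the zygosity of the mutants or say whether each array held bone of a single mouse. The p-values below thus weigh a difference against the variation among these arrays, part of which may be technical. The comparison asks which genes differ in bone between the mutants and their littermates.

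Keratins are the intermediate filament proteins of epithelial cells and work as pairs of a type I and a type II chain. In the epidermis, dividing basal keratinocytes make Krt5 with Krt14, and cells that leave the basal layer switch to Krt1 with Krt10. In the outermost living layers, loricrin and late cornified envelope proteins are cross-linked under the cell membrane into a tough shell, and plakoglobin, the product of Jup, ties keratin filaments to the desmosomes that hold neighbouring cells together. Bone, cartilage and muscle cells do not build cornified envelopes, so these genes serve as markers of skin epithelium in a dissected bone.

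RefSeq's promoter table for GRCm38.p6 matched 9 of the 11 genes, and the 250 bases before the start were searched on both strands for TATAAA, the core of a TATA box, and for TGANTCA, the core of an AP-1 element, which do not overlap here. Lor, of the cornified envelope, Krtdap, of differentiating keratinocytes, and the keratin pair members Krt10 and Krt5 are shown. They were chosen because they stand for the outer, suprabasal and basal layers whose transcripts varied together. Capitals mark the matches to either motif, and each line reads 5′ to 3′ and ends at the base before the start.
Lor: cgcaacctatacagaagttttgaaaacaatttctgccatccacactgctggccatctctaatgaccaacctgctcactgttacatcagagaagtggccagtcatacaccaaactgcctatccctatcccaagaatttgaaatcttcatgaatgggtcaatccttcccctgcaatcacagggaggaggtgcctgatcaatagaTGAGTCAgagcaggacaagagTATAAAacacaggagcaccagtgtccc
Krtdap: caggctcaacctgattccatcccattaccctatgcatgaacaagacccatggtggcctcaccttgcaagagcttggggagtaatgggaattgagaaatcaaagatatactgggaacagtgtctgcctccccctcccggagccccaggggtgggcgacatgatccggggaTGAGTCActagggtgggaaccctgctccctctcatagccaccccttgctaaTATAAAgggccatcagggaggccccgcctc
Krt10: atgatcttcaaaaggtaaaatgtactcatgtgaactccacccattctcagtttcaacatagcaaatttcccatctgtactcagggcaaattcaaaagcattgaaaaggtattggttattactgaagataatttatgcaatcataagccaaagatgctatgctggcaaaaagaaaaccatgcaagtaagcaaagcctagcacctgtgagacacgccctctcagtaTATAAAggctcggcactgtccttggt
Krt5: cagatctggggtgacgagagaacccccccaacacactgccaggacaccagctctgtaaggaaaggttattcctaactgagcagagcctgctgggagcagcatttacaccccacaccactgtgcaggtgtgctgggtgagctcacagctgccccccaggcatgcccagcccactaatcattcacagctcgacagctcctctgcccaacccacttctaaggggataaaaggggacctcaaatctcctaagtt
The Lor window lies at chr3:92083143-92083392, minus strand, the Krtdap window at chr7:30787655-30787904, plus strand, the Krt10 window at chr11:99389365-99389614, minus strand and the Krt5 window at chr15:101712906-101713155, minus strand. TATAAA stood in the windows of Lor, Krtdap, Krt10 and Krt33b, that is in 4 of the 9, and in 12.4% of all 32851 windows of the same length. Its first base lay 27 bases before the start in Lor, 30 in Krtdap, 26 in Krt10 and 47 in Krt33b. TGANTCA stood in 2 of the 9, Lor (48 bases before the start) and Krtdap (81 bases), and in 6.75% of all windows. Windows with both motifs made up 1.21% of all. By chromosome, Lor and Lce1j lie on 3, Krtdap on 7, Krt10, Krt14, Krt33b and Jup on 11, and Krt5 and Krt1 on 15, where the type II keratin genes are clustered.

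The values were summarised intensities on a linear scale. Array medians were between 45.5 and 47.8 in the mutants and between 39.6 and 48.4 in the wild-type mice, with the lowest median on wild-type replicate 1. On that array 1205 probe sets were under 20, against between 405 and 558 on each of the others. None of the 8997 probe sets was at 20 or above on fewer than 3 arrays, a filter by level seen in the values and not described in the labels. The 11 genes are those of these families that passed it, and dimmer ones are not covered. Of the bone markers 14 of 17 were measured, with the bone collagen gene Col1a1, named for this check, between 7321 and 7785 on the mutant arrays and between 6552 and 7807 on the wild-type arrays. Muscle markers were measured as well, 13 of 13. Among them Acta1, named after its values were seen, was between 2309 and 2889 on the mutant arrays and between 1955 and 3614 on the wild-type arrays. Bone transcripts were thus present, but this check does not show bone alone. Precision is limited by having 3 arrays per genotype.

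The basal keratin genes were bright on 3 of the 6 arrays and dim on the other 3. Krt5, the type II chain of basal keratinocytes, was at 14.8, 61.6 and 9.82 on mutant replicates 1, 2 and 3, against 199, 156 and 5.94 on wild-type replicates 1, 2 and 3. Krt14, its type I partner, was at 11.1, 45.3 and 9.87 on the mutant arrays, against 112, 66.5 and 9.21 on the wild-type arrays. In both genes mutant replicate 2 stood above the other mutants, wild-type replicates 1 and 2 stood above all mutants, and wild-type replicate 3 was lowest of all 6 arrays, so that the groups overlapped.

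The suprabasal pair had the same split with a wider range. Krt1 was at 20.9, 211 and 9.41 on the mutant arrays, against 960.2, 623 and 9.79 on the wild-type arrays. Krt10 was at 16.7, 96.7 and 11.6 on the mutant arrays, against 333, 229 and 8.47 on the wild-type arrays. The brightest array exceeded the dimmest by 102-fold in Krt1 and by 39.3-fold in Krt10, compared with 33.5-fold in Krt5 and 12.2-fold in Krt14. The dim values are among the dimmest of these arrays, so the size of these folds rests on a background correction that the sources do not give.

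The genes of the cornified envelope and Krtdap followed. Lor, which encodes loricrin, was at 6.47, 25.05 and 5.87 on the mutant arrays, against 90.5, 117 and 8.73 on the wild-type arrays. Krtdap, a secreted protein of differentiating keratinocytes, was at 5.26, 21.0 and 4.71 on the mutant arrays, against 103, 55.6 and 5.12 on the wild-type arrays. Lce1j, a late cornified envelope gene, was at 14.6, 32.4 and 12.9 on the mutant arrays, against 98.4, 52.3 and 17.996 on the wild-type arrays. Lor was the 1 epidermal gene that was brighter on wild-type replicate 2 than on replicate 1, and the other 6 were brightest on replicate 1.

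**Figure D1:**
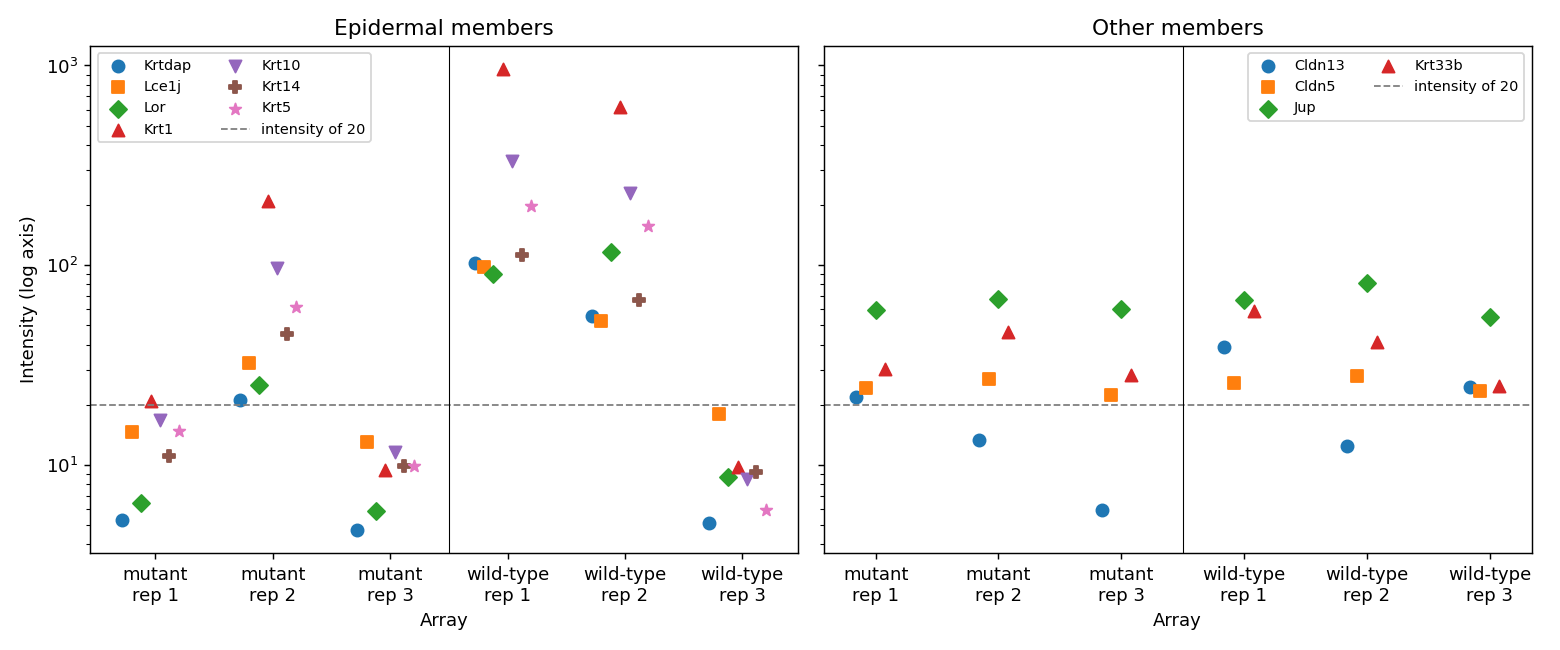
Intensity of each gene (log axis) on the 3 mutant and 3 wild-type arrays, with the 7 epidermal genes on the left and the other 4 on the right; each point is 1 probe set on 1 array. The epidermal genes lie between 90.5 and 960.2 on wild-type replicate 1 and between 5.12 and 17.996 on wild-type replicate 3.

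All 7 epidermal genes had mutant replicate 2 and wild-type replicates 1 and 2 above the other 3 arrays, an arrangement noticed in these values that was found in 3.05% of all probe sets (274). Among the 3 bright arrays, wild-type replicate 2 was above mutant replicate 2 in 7 of 7 genes. Among the other 3, mutant replicate 1 was above mutant replicate 3 in 7 of 7. The 7 genes varied together, so these counts are not 7 separate observations, and the shares of all probe sets in these orders are not given here. Mutant replicate 3 and wild-type replicate 3 had no set order, with mutant replicate 3 the brighter in 3 of 7. Since 6 of the 7 reached an intensity of 20 on exactly 3 arrays, they are in the table because of those 3, and an epidermal gene that reached 20 on fewer arrays would have been left out.

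Folds between arrays within each gene are given next, and those over the dim arrays share the uncertainty of the background correction. Within the mutants, replicate 2 exceeded replicate 1 by 2.22- to 10.1-fold (median 4.10) and replicate 3 by 2.51- to 22.4-fold (median 4.59). Within the wild-type mice, replicate 1 exceeded replicate 3 by 5.47- to 98.0-fold (median 20.1) and replicate 2 exceeded replicate 3 by 2.91- to 63.6-fold (median 13.4). Their summed intensity was 89.9, 493 and 64.2 on the mutant arrays and 1896, 1300.0 and 65.3 on the wild-type arrays. As a share of the summed intensity of all probe sets this was 0.00676%, 0.0357% and 0.00449% on the mutant arrays and 0.154%, 0.0938% and 0.00442% on the wild-type arrays. On the log2 scale, the mean of the 7 relative to each gene's own mean stood at -1.45, 0.70 and -1.87 on the mutant arrays, against 2.51, 1.99 and -1.88 on the wild-type arrays. Fewer keratinocytes and less keratin RNA per cell cannot be told apart in these bulk samples, and how much skin each bone carried was not tested.

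The spread between replicate arrays of the epidermal genes ranked high among the probe sets of these arrays. This rank is partly set by the filter by level, which kept a gene dim on 3 arrays only if it was bright on the other 3, and it rests on dim values whose background correction is not given. Their pooled within-group SD of log2 intensity was between 1.01 (Lce1j) and 3.06 (Krt1), with a median of 1.83, and the median over all 8997 probe sets was 0.28. By this SD, Krt1 ranked 3, Krt10 ranked 6, Krt5 ranked 7, Krtdap ranked 11, Lor ranked 12, Krt14 ranked 14 and Lce1j ranked 74 of 8997. A range of at least 3 on the log2 scale over the 6 arrays was seen in 6 of the 7 epidermal genes, all but Lce1j, and in 0.5% of all probe sets (45). Of these 45, 13 had the same 3 brightest arrays: 6 were epidermal genes described here, and Hrnr and Asprv1 were the others with a single gene symbol. The remaining 5 had either no symbol or several, which are not told apart here. Probe sets without a single gene symbol held the first and second ranks by range, ahead of Krt1.

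**Figure D2:**
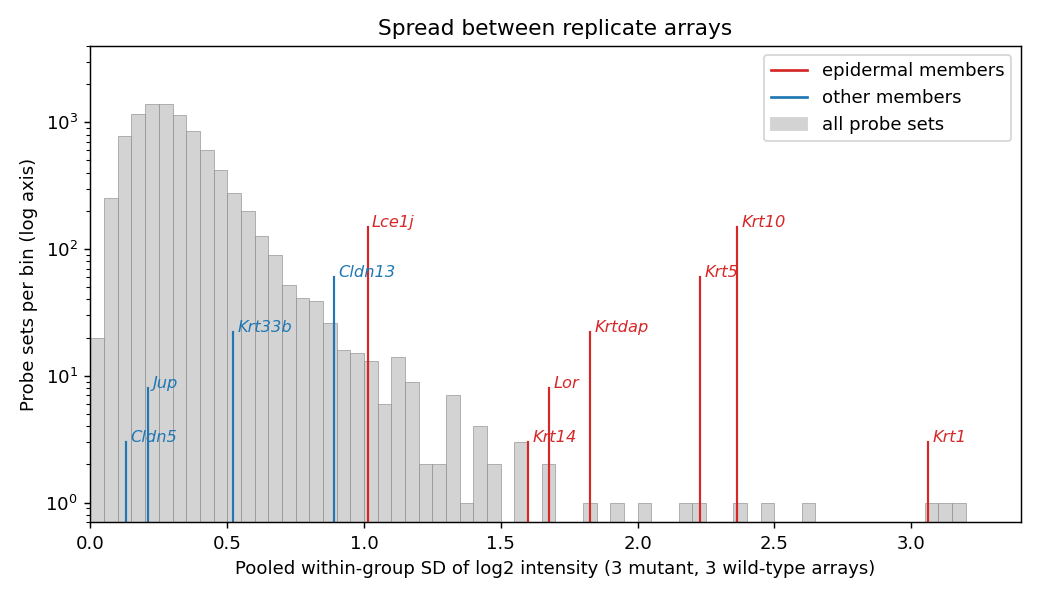
Histogram of the pooled within-group SD of log2 intensity (x axis) over all 8997 probe sets (count on a log axis), with the 11 genes marked by lines whose height has no meaning. The 7 epidermal genes lie between 1.01 and 3.06, far to the right of the median of 0.28 over all probe sets.

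Between the genotypes, all 11 genes had lower mean log2 intensity in the mutants, as did 43.3% of all probe sets, but 0 of the 11 passed. Limma called 0% of the 8997 probe sets higher and 0% lower at an adjusted p of 0.05 over all of them. In 0 of the 11 did the groups stand apart, while all mutant arrays lay below all wild-type arrays in 3.89% of probe sets and above them in 9.18%. At an unadjusted p under 0.05, limma had 2 of the 11 lower, Lor and Lce1j, where 1.7% of all probe sets were lower and 5.74% higher.

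Lor averaged 12.5 ± 10.9 in the mutants and 72.0 ± 56.3 in the wild-type mice (SD, n = 3 each), a log2 difference of -2.20 ± 0.90 (SE, limma adjusted p = 0.667). Lce1j averaged 19.995 ± 10.8 in the mutants and 56.3 ± 40.4 in the wild-type mice, a log2 difference of -1.31 ± 0.56 (limma adjusted p = 0.669). In Krt1 the averages were 80.3 ± 113 in the mutants and 531 ± 482 in the wild-type mice, a log2 difference of -2.38 ± 1.62 (limma adjusted p = 0.739). The SD exceeded the mean for Krt1 in the mutants and was below it in the other groups of these 3 genes. The log2 differences of the other epidermal genes were -1.94 ± 0.98 in Krtdap, -1.70 ± 1.26 in Krt10, -1.45 ± 1.19 in Krt5 and -1.27 ± 0.86 in Krt14, with limma adjusted p-values between 0.708 and 0.769.

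The median log2 difference was -1.70 over the 7 epidermal genes and -1.31 over all 11 genes, and 0.045 over all probe sets. The epidermal median was -0.75 without wild-type replicate 1, -2.63 without mutant replicate 2, -1.11 without mutant replicate 3 and -3.23 without wild-type replicate 3. Arrays were also weighted by their overall agreement. Wild-type replicate 1 received the lowest weight (0.232), and wild-type replicate 3 (2.15) and mutant replicate 2 (2.11) received the highest. With these weights the epidermal median was 0.13, and Krt1, Krt5, Krt10 and Krt14 had higher means in the mutants.

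**Figure D3:**
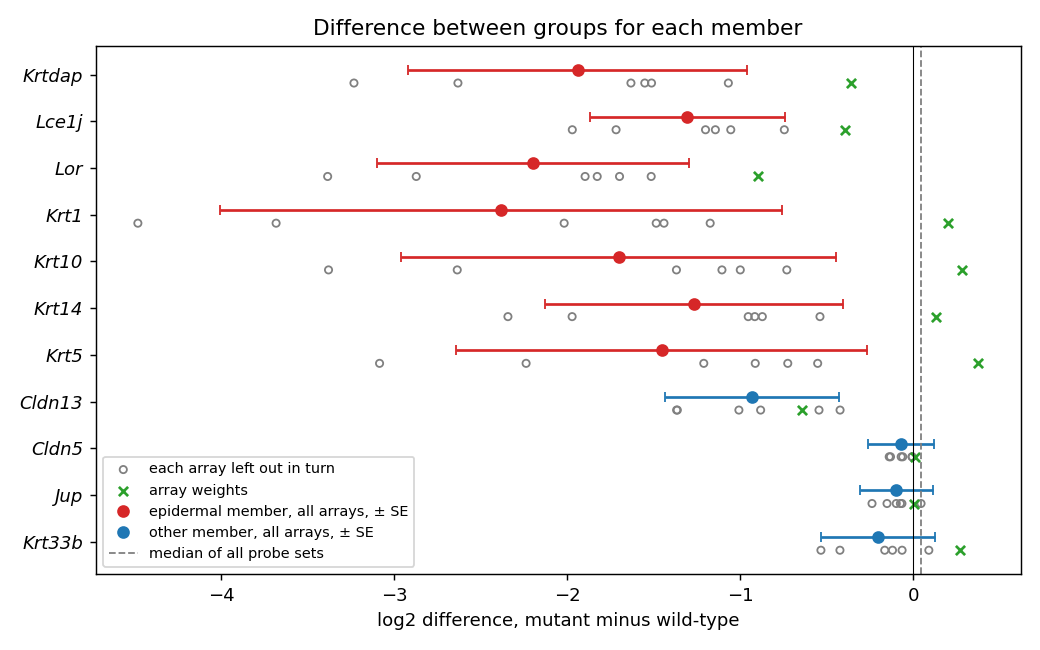
Log2 difference, mutant minus wild-type, for each gene (filled circles with the moderated SE), with the values after leaving out each array in turn (open circles) and with array weights (crosses); the dashed line is the median of all probe sets, 0.045. The epidermal genes lie between -2.38 and -1.27 with all arrays, and Krt1, Krt5, Krt10 and Krt14 lie above 0 with array weights.

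The other 4 genes varied less. Jup, which encodes plakoglobin of desmosomes and adherens junctions, was at 59.9, 67.5 and 60.6 on the mutant arrays, against 66.8, 81.5 and 55.0 on the wild-type arrays (log2 difference -0.10 ± 0.21, limma adjusted p = 0.925). Krt33b, a type I keratin of hair, was at 30.3, 46.1 and 28.0 on the mutant arrays, against 58.6, 41.2 and 24.7 on the wild-type arrays (-0.20 ± 0.33, limma adjusted p = 0.884). Both genes had the same 3 brighter arrays as the epidermal genes, within 1.25 on the log2 scale for Krt33b and within 0.57 for Jup, and their groups overlapped.

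Cldn5, the claudin of endothelial tight junctions, was at 24.1, 26.9 and 22.4 on the mutant arrays, against 25.6, 27.9 and 23.5 on the wild-type arrays (-0.07 ± 0.19, limma adjusted p = 0.941). The same 3 arrays as in the epidermal genes were the brighter ones, by little. Its range of 0.32 on the log2 scale was under the median range of 0.78 over all probe sets. The 9 endothelial markers measured stood at a mean of 0.25, -0.03 and 0.04 on the mutant arrays and -0.37, 0.04 and 0.06 on the wild-type arrays, relative to each gene's own mean (log2). Those of smallest p were Ramp2 (log2 difference 0.54 ± 0.20, limma adjusted p = 0.657) and Ptprb (0.43 ± 0.23, limma adjusted p = 0.708).

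Cldn13, a claudin known in the mouse from red cell precursors, was at 21.8, 13.3 and 5.92 on the mutant arrays, against 39.1, 12.5 and 24.5 on the wild-type arrays (-0.93 ± 0.50, limma adjusted p = 0.708). It was the 1 gene of the 11 that did not follow the split, being low on wild-type replicate 2 and mutant replicate 2 and lowest on mutant replicate 3. Cldn13 reached 20 only on mutant replicate 1 and wild-type replicates 1 and 3, so the filter by level kept it because of those arrays. The 3 blood and marrow markers measured, the white cell genes S100a8, S100a9 and Mpo, stood at 0.01, -0.02 and 0.36 on the mutant arrays, against -0.11, -0.64 and 0.40 on the wild-type arrays (log2).

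Keratinocyte genes outside the symbol rule, not all expressed in keratinocytes alone, were examined in a list of 83, of which 13 were measured. Of these, 10 had lower and 3 higher means in the mutants, 0 passed, and the median log2 difference was -0.46. In 5 of the 13 the same 3 arrays were the brightest: Hrnr, Asprv1, Lgals7, Ly6d and Cnfn, the last named after its values were seen. Hrnr, Lgals7, Ly6d and Cnfn reached 20 on exactly these 3 arrays, so the filter by level kept them because of this split. Of the 5, Asprv1 alone was above 20 on all 6 arrays. Hrnr, for the filaggrin-like protein hornerin, was at 9.85, 76.9 and 8.96 on the mutant arrays, against 276, 372 and 8.14 on the wild-type arrays. Asprv1, for a protease that processes filaggrin, was at 20.9, 42.5 and 20.7 on the mutant arrays, against 181, 127 and 26.1 on the wild-type arrays (log2 difference -1.68 ± 0.62, limma adjusted p = 0.657). Fabp5, a fatty acid-binding protein of keratinocytes and other cells, was at 19.4, 22.3 and 22.9 on the mutant arrays, all below the 35.03, 31.0 and 23.6 on the wild-type arrays (-0.46 ± 0.22, limma adjusted p = 0.686). The other 8 of the 13 did not have these 3 arrays as the brightest. They were Fabp5, Anxa8, Plec, Col7a1, Dst, Itga6, Klf5 and S100a16, named here after their values were seen, except for Fabp5, and among them Anxa8 was brightest on mutant replicate 2 and wild-type replicate 3.

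Likeness to the mean log2 level of the epidermal genes over the 6 arrays was taken for all named genes outside the 11. It was highest in Lgals7 (Pearson r = 0.990, n = 6 arrays), Hrnr (0.989), Asprv1 (0.964) and Ly6d (0.964), each from the keratinocyte list. These values are a description, and all genes share the same 6 arrays and their overall brightness. Lgals7, Hrnr and Ly6d passed the filter by level only through the 3 arrays on which the epidermal genes were bright. Lgals7, for galectin-7 of stratified epithelia, was at 9.85, 23.1 and 9.80 on the mutant arrays and 41.4, 32.9 and 11.3 on the wild-type arrays. Ly6d was at 8.60, 22.7 and 9.30 on the mutant arrays and 42.4, 25.3 and 11.1 on the wild-type arrays. The next 6 in this order were Zdhhc12, Sncb, Cln3, Il17rc, Ap5z1 and Epn1, with r between 0.929 and 0.947, and their brightest array exceeded their dimmest by only 1.18- to 1.42-fold.

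**Figure D4:**
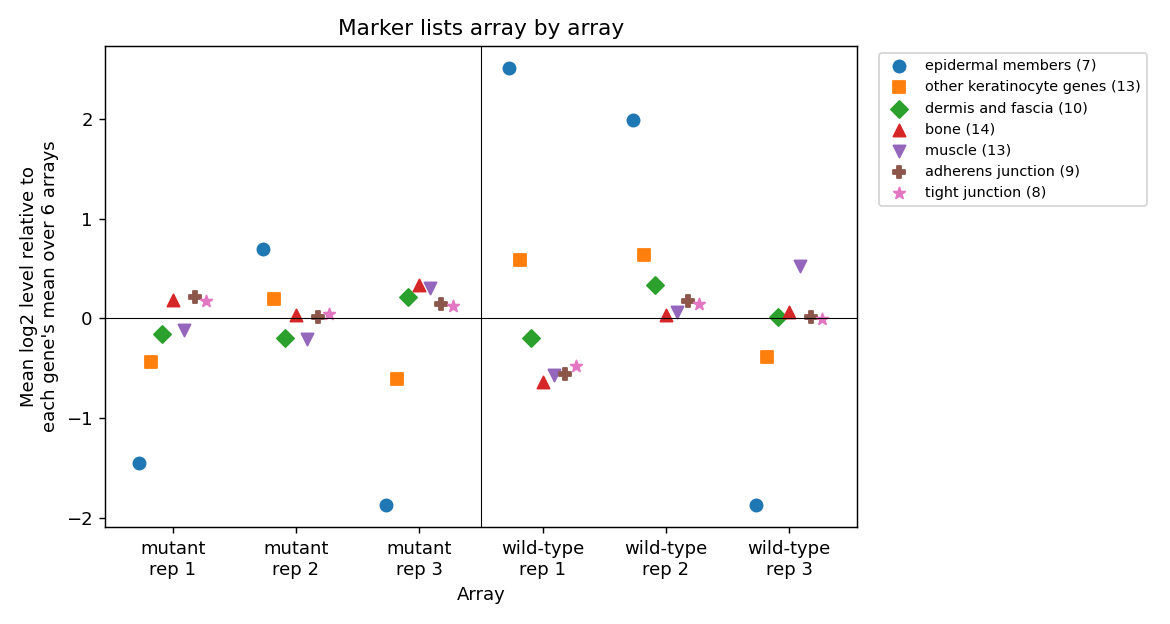
Mean log2 level of each marker list on each array, relative to each gene's own mean over the 6 arrays; the number of genes is in the legend. The epidermal genes range from -1.88 to 2.51, and the bone genes from -0.64 to 0.33.

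Marker lists of the other tissues did not share the split. The 14 bone genes stood at 0.18, 0.03 and 0.33 on the mutant arrays and at -0.64, 0.03 and 0.07 on those of wild-type mice. In 0 of the 14 were the same 3 arrays the brightest. Since 3.05% of all probe sets had this arrangement, the count cannot set so short a list apart from the rest. The bone genes of smallest p were the osteoclast enzymes Ctsk (log2 difference 1.16 ± 0.34, limma adjusted p = 0.590) and Acp5 (0.72 ± 0.23, limma adjusted p = 0.595). The 13 muscle genes stood at -0.12, -0.21 and 0.30 on the mutant arrays, against -0.57, 0.07 and 0.53 on the wild-type arrays. Both lists were thus lowest on wild-type replicate 1, where the epidermal genes were highest, but not low on wild-type replicate 2, and the part of these differences in the epidermal values was not tested. The muscle genes of smallest p were Actn2 (0.45 ± 0.35, limma adjusted p = 0.767) and Actn3 (-0.41 ± 0.33, limma adjusted p = 0.769). The 10 genes of dermis and fascia stood at -0.16, -0.20 and 0.21 on the mutant arrays, against -0.20, 0.34 and 0.01 on the wild-type arrays. The 2 of smallest p on this list did not follow the split. Pdgfra, a growth factor receptor gene of mesenchymal cells, was at 537, 412 and 306 on the mutant arrays, all above the 123, 276 and 176 on the wild-type arrays (log2 difference 1.17 ± 0.32, limma adjusted p = 0.570). Dpt, for the matrix protein dermatopontin, had a log2 difference of -0.52 ± 0.23 (limma adjusted p = 0.669). Twist2, a transcription factor gene of dermal fibroblasts named after its values were seen, was the 1 of the 10 with the same 3 brightest arrays, at 15.04, 20.1 and 18.01 on the mutant arrays and 28.9, 25.6 and 19.3 on the wild-type arrays. Twist2 reached 20 on exactly these 3 arrays, so the filter by level kept it because of them.

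Junction genes shared with other cell types had mostly higher means in the mutants, as did 56.7% of all probe sets. Of 9 adherens junction genes 8 were higher and 1 lower, with a median log2 difference of 0.24, and those of smallest p were Cdh11, the cadherin of osteoblasts (0.48 ± 0.22, limma adjusted p = 0.679), and Afdn (0.40 ± 0.20). Of 8 tight junction genes 7 were higher and 1 lower, with a median of 0.31, and those of smallest p were the scaffold gene Tjp1 (0.46 ± 0.25, limma adjusted p = 0.708) and Amotl1 (0.38 ± 0.25). In these 2 lists 0 genes passed, and both stood lowest on wild-type replicate 1, at -0.56 and -0.48 (log2). Of the other cells of skin, 0 of 10 melanocyte genes, 2 of 18 genes of hair follicle and sebaceous gland (Foxe1 and Scd1) and 2 of 10 adipocyte genes (Fabp4 and Lpl) were measured, as were 2 of 9 Schwann cell and nerve genes (Ncam1 and Pmp22), and 0 of these passed.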

How the data were processed

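Total RNA of radii and ulnae was purified on RNeasy columns and amplified, and single-stranded cDNA was fragmented and end-labelled with biotin for Affymetrix whole-transcript arrays, per the labels' protocols. The deposited values are intensities on a linear scale, 1 per probe set and array. Their background correction, summarisation and scaling are not given in the sources used here. Gene names came from the platform annotation of 2016: 6398 of the 8997 probe sets had 1 symbol, 576 several and 2023 none. The symbols of the 11 genes were unchanged in RefSeq for GRCm38.p6, through Entrez identifiers. The brightest probe set stood for a gene.

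The analysis used log2 of the intensities as deposited, unfiltered. Group means were fitted with lmFit and eBayes of limma 3.58.1 (R 4.3.3) to all probe sets, two-sided, with Benjamini-Hochberg adjustment over all 8997 and a threshold of 0.05, after the procedure was tested on simulated data. Log2 differences are given as mutant over wild-type with their moderated SE. Every adjusted p comes from limma. Genes outside the 11 were named as the 2 of smallest p in a marker list and the 10 most like the epidermal mean, with exceptions named in the text after their values were seen. Alternatives were other normalizations, filters, variance models, thresholds and probe set summaries, the replicate block and leaving out single arrays. The genes and lists were chosen with earlier results of these data known. Whether the replicate number marks a litter pair is not given in the labels, so the fit had no pairing, and the paired fit was an alternative. Deviations of same-numbered arrays from their group means correlated at -0.107, -0.0255 and 0.315 over probe sets. With 3 arrays per group these values constrain each other, so they cannot show whether the arrays were paired. Tables and plots were made with Python 3.11.15, pandas 2.3.3 and matplotlib 3.10.9.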

Additional observations from a re-analysis of the deposited data

How the results depend on the processing

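The number of the 11 genes that passed was 0 under every setting run except an unadjusted p under 0.05 (2 lower). Of 144 values of single genes under other settings, 135 kept the direction, 9 turned, and 0 passed (smallest limma adjusted p 0.331). Many of the 135 could not turn. The intensity trend with robust variances, the replicate block, the mean over probe sets and the filters by level leave each log2 difference unchanged. The count of 135 is thus no measure of how stable the direction is. With array weights the log2 difference turned in Krt10 (0.28), Krt33b (0.27), Krt14 (0.13), Jup (0.0066), Krt5 (0.38), Krt1 (0.20) and Cldn5 (0.0085), and the median over the 11 was 0.0085. When single arrays were left out, Krt33b ranged from -0.53 to 0.090 (without wild-type replicate 1) and Jup from -0.24 to 0.045 (without wild-type replicate 2). The median then ranged from -2.34 to -0.55 over the 11 genes and from -3.23 to -0.75 over the epidermal genes. Leaving out probe sets under 20 on any array kept 3 of the 11 and 0 epidermal genes, so no epidermal median could be given. Under quantile normalization and median centring, the epidermal level per array moved most on wild-type replicate 1. There it went from 2.51 to 2.69 and 2.73 (log2). All moves were below the within-group SD of 1.96, but this SD holds the split between arrays and is a loose limit. With the replicate number as a block, 0 probe sets and 0 of the 11 genes passed (adjusted p 0.637 for Krt1), and of the 3 mutant arrays 1 correlated best with the wild-type array of its number.

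Over all probe sets, the count at an unadjusted p under 0.05 was 516 higher and 153 lower. Limma called 4 higher with array weights and between 0 and 15 higher when single arrays were left out, the 15 without mutant replicate 3. In an alternative chosen after seeing the data, the mean log2 level of the epidermal genes entered the fit as a covariate. It gave 281 higher and 320 lower at an unadjusted p under 0.05, and 0 called (smallest adjusted p 0.231, against 0.155 without it). The cause was not tested.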
